A study of Coturnix japonica with 42 samples.

Results

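The iodothyronine deiodinases are the selenium-containing enzymes that switch thyroid hormone on and off inside a tissue. They were followed here through every probe set that the platform annotation assigns to DIO1, DIO2 or DIO3, which gave 4 probe sets of 3 genes among the 38439 probe sets on the array that were not controls. DIO2 was represented by Gga.1819.1.S1_at and by a dimmer probe set, Gga.1819.2.S1_a_at, and DIO3 and DIO1 by 1 probe set each (Gga.552.1.S1_at and Gga.553.1.S1_at). All 4 were among the 32057 probe sets tested. Unless the dimmer one is named, DIO2 below means Gga.1819.1.S1_at.

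DIO2 removes an outer-ring iodine from thyroxine and so makes triiodothyronine, the form that binds the nuclear receptors. DIO3 removes an inner-ring iodine and inactivates both hormones, and DIO1, best known from liver and kidney, can do either. In the mediobasal hypothalamus of quail and other seasonal vertebrates, thyrotropin made in the pars tuberalis of the pituitary acts on the tanycytes lining the third ventricle, and the balance of DIO2 and DIO3 in these cells sets the local hormone supply that drives the reproductive response to day length. The labels present the series as a time course of this photoinduction, so the comparisons below ask when each deiodinase moved, how fast, and whether the move lasted.

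RNA came from the mediobasal hypothalamus of male quail, 8 weeks old, kept for 4 weeks on short days (6 h light, 18 h dark) and then switched to long days (20 h light, 4 h dark). No genotype or drug was involved, and all groups shared the 4 weeks of short days. At each of 21 times 6 birds were taken, and RNA of 3 birds was pooled for each of 2 chicken genome arrays, so n counts pools of birds. If the times are counted in hours from when the short day began, those of 2 to 22 h make up the short day (12 arrays), 26 to 46 h the first long day (18 arrays) and 50 to 70 h the second long day (12 arrays). When the light came on is not stated in the labels, so the lit hours rest on this reading.

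Signal means the authors' intensity brought to 1 common scale across arrays, and differences are in log2 of it. Over the tested probe sets both arrays of a time correlated at 0.812 (62 h) to 0.890 (58 h) on the second long day. Before it they correlated at 0.890 (30 h) to 0.907 (46 h), and each earlier time was above every time of the second long day. Most arrays of that day were scaled up and most of the short day scaled down. The part of this in the differences between days was not tested. Of 16 tanycyte and ependymal markers 13 were measured, that is, above the array's median on at least 2 arrays. None was at the floor on every array of a day. GFAP and SLC1A3 are on the astrocyte list too, so these values do not establish which cells were present. The summed signal of the 13 was 4379 to 5291 on the short day, 4453 to 7287 on the first long day and 5351 to 8902 on the second. Bright markers dominate such a sum. The mean log2 signal of the 13 ran from 5.98 to 6.43, from 5.96 to 6.57 and from 6.28 to 6.76, so by this measure the days overlapped. Of these markers 1 was higher on the second long day, VIM (1.79-fold, limma adjusted p = 3.04e-07). On that day 0.396% of all tested probe sets passed the threshold as higher. VIM was also higher on the second than on the first long day at hours 2 and 6 (2.19-fold, limma adjusted p = 5.27e-04), where 0.0499% of all probe sets passed. Its slope from 38 to 46 h was 0.13 log2 units per h (limma adjusted p = 0.0378), where 0.0374% passed. The part of these shifts in the deiodinase results was not tested. In bulk tissue, fewer cells of a type and less RNA per cell cannot be told apart.

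DIO2 was low and steady until 38 h, rose over the next 6 h and then stayed high to the end of sampling. Short-day arrays had a lowest signal of 24.96, a median of 45.3 and a highest of 68.6. On the first long day the arrays read 58.7 and 60.9 at 26 h, 41.6 and 35.8 at 30 h, 39.2 and 50.5 at 34 h, 36.8 and 59.9 at 36 h, and 48.7 and 49.8 at 38 h. All of these lay within the short-day range.

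From then on DIO2 climbed at each of the next 3 samplings. Its arrays read 83.8 and 95.5 at 40 h, 162 and 198 at 42 h, 206 and 263 at 44 h, and 228 and 172 at 46 h. Each of these 8 arrays lay above all 12 of the short day. Both arrays did so for 1.16%, 1.72%, 1.41% and 1.21% of all tested probe sets at these 4 times, so such a separation at 1 time alone is not rare on this platform. By limma the DIO2 difference from the short day at 40 h was not called. It was not called under any of 55 alternatives either (log2 0.76 to 1.02, lowest limma adjusted p 0.316).

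On the second long day the DIO2 arrays read 187 and 56.9 at 50 h, 156 and 160 at 54 h, 142 and 136 at 58 h, 162 and 137 at 62 h, 120 and 118 at 66 h, and 163 and 160 at 70 h. Only the second array of 50 h fell back into the short-day range. That array had the lowest 2% trimmed mean of all as deposited (25.15) and so the highest scaling factor (1.29). Both arrays lay above the short day for 2.13%, 1.73%, 2.92%, 2.54% and 2.99% of all tested probe sets at 54, 58, 62, 66 and 70 h. The dimmer DIO2 probe set read 22.0 and 28.0 on the same pair of arrays and so did not show that drop. In the order of time means DIO2 was highest at 44 h (235 ± 40.4, SD, n = 2 arrays), followed by 46 h (200 ± 39.7) and 42 h (180 ± 25.7), and the arrays of these neighbouring times overlapped. The mean at 40 h (89.7 ± 8.23) lay below the other times from 42 h on and above every time up to 38 h.

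The DIO3 signal took the opposite course and moved much further in log2. Short-day arrays ran from 224 through a median of 357 to 526. The arrays read 287 and 363 at 26 h, 348 and 318 at 30 h, 380 and 335 at 34 h, 412 and 307 at 36 h, and 356 and 230 at 38 h. None of these left the short-day range.

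At 40 h the DIO3 arrays read 176 and 153, both below all 12 of the short day. That position was shared by 0.702% of all tested probe sets at this hour. By limma the DIO3 difference from the short day at 40 h was not called. It was not called under any of 55 alternatives either (log2 -1.17 to -0.90, lowest limma adjusted p 0.489). The DIO3 arrays then read 40.7 and 63.1 at 42 h, 38.6 and 31.97 at 44 h, and 27.5 and 35.2 at 46 h. These 3 times lay below the short day for 1.17%, 1.06% and 0.951% of all probe sets. The arrays of 38, 40, 42 and 44 h did not overlap with their neighbours in this order, while those of 44 and 46 h did.

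Across the second night DIO3 went lower still. Its arrays read 21.8 and 10.3 at 50 h, 21.6 and 10.3 at 54 h, 3.09 and 16.0 at 58 h, 10.0 and 9.19 at 62 h, 19.9 and 18.7 at 66 h, and 7.48 and 6.46 at 70 h. All 12 lay below the short day, a separation of whole days that 0.0374% of tested probe sets showed in this direction. They also lay below the lowest array of the first long day, and DIO3 was the single probe set of all tested (0.00312%) for which the second long day lay below both earlier days. Taken time by time, the share with both arrays below the short day was 1.06%, 1.13%, 1.21%, 2.01%, 1.55% and 1.81% from 50 to 70 h. On 5 of these 12 arrays the signal was above the array's median, and on 1 (58 h, first array) it was under the floor of 3.51, so the depth of the fall is set by dim signals. Folds that rest on signals below the array's median are therefore given below as lower limits, with each such signal raised to that median. These limits allow for dim signals only and are point values without sampling error.

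**Figure D1:**
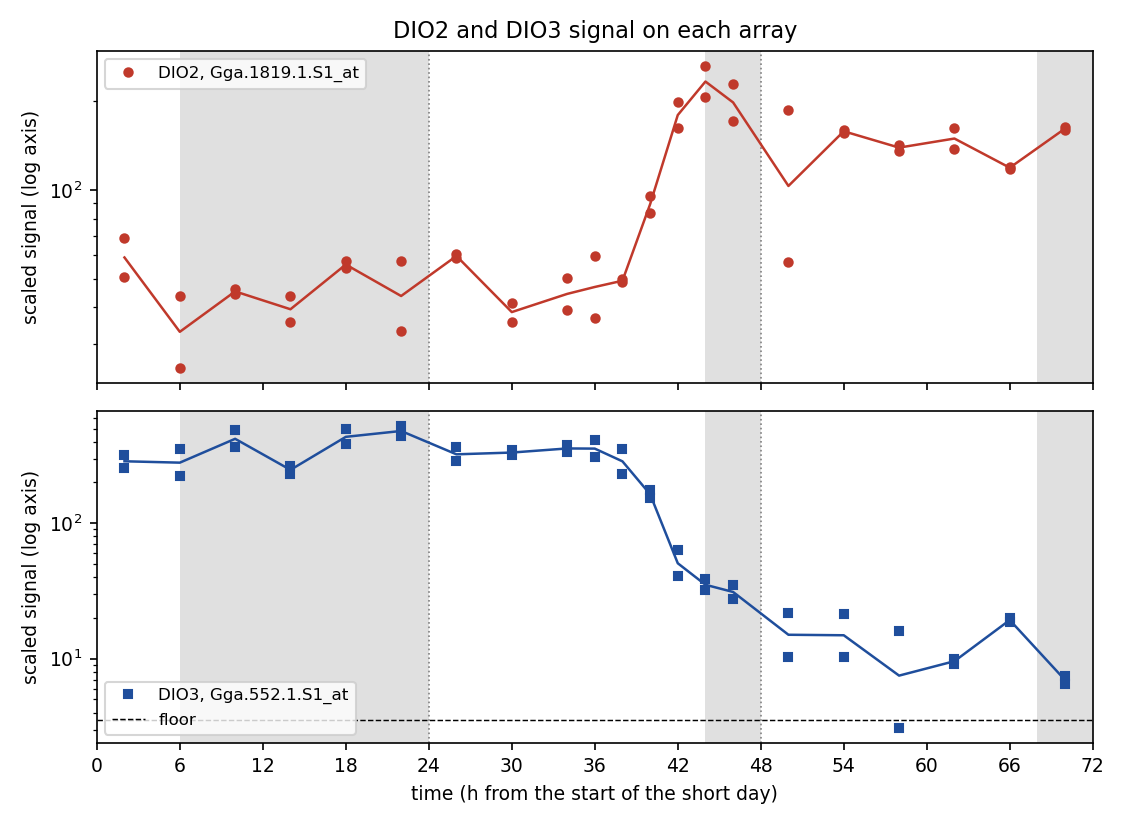
Scaled signal (log axis) of DIO2 (Gga.1819.1.S1_at, upper panel) and DIO3 (Gga.552.1.S1_at, lower panel) against time in hours; points are arrays, lines join the means of 2 arrays on the log scale, grey marks dark hours and the dashed line the floor. Levels of different probe sets are not comparable. DIO2 leaves its short-day range of 24.96 to 68.6 at 40 h and has its highest mean at 44 h. DIO3 leaves its range of 224 to 526 at 40 h and lies at 21.8 or below from 50 h on.

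DIO1 and the dimmer DIO2 probe set were near the lower end of what the array resolved. DIO1, Gga.553.1.S1_at, was above the array's median on 7 of 42 arrays and under the floor on 12. Its signal ran from 0.48 through 5.73 to 11.9 on the short day, from 0.48 through 7.83 to 14.3 on the first long day and from 1.25 through 6.76 to 14.1 on the second. The days overlapped throughout, and 42 h, at 14.3 and 13.0, was the only time with both arrays above the short day. Of all tested probe sets 1.72% had that position at 42 h, so it is not read as a change of DIO1. Of the test results of DIO1, the log2 difference of the second long day from the short day was 0.39 (95% interval -0.21 to 0.99, limma adjusted p = 0.657) and that of hours 10 to 22 of the first long day was 0.30 (-0.44 to 1.03, adjusted p = 0.976). No fold is given for DIO1, since most of its signals were below the array median on every day.

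The dimmer DIO2 probe set, Gga.1819.2.S1_a_at, was above the array's median on 27 arrays. Its signal ran from 2.03 through 9.18 to 17.5 on the short day, from 2.15 through 12.1 to 32.03 on the first long day and from 6.16 through 17.6 to 29.1 on the second. The days overlapped, but both arrays lay above the short day at 46 h (26.5 and 25.9), 50 h and 70 h (24.6 and 29.1). Of all probe sets 1.21%, 1.76% and 2.99% did so at these times. Its correlation with Gga.1819.1.S1_at was 0.54 over 42 arrays and 0.63 over 21 time means, a description of values that share arrays and scaling.

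**Figure D2:**
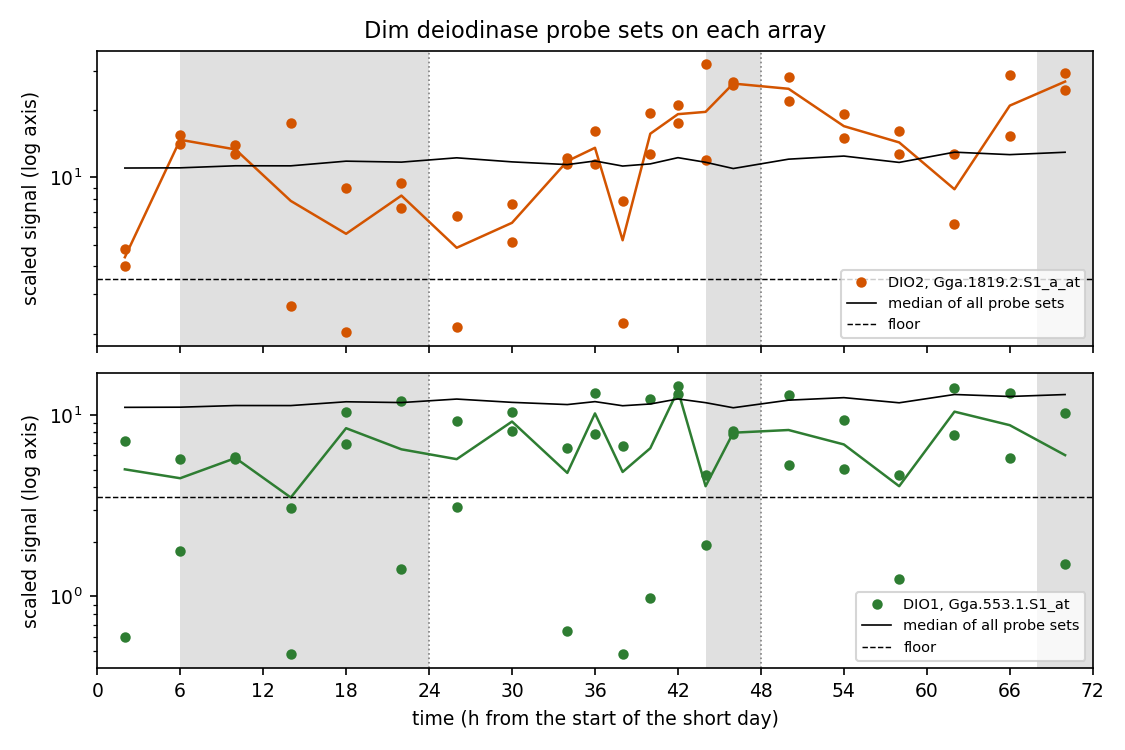
Scaled signal (log axis) of the dimmer DIO2 probe set (upper panel) and DIO1 (lower panel) against time; points are arrays, coloured lines the means of 2 arrays on the log scale, the black line the median of all probe sets and the dashed line the floor. The DIO2 probe set lies above the black line on 27 of 42 arrays and DIO1 on 7, and both arrays of the DIO2 probe set lie above the whole short day at 46, 50 and 70 h.

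On the second long day as a whole, against the same 6 hours of the short day (12 arrays against 12), 3 of the 4 deiodinase probe sets passed the threshold, against 1.37% of all tested probe sets (0.396% higher and 0.97% lower). DIO2 was higher by 1.60 on the log2 scale (SE 0.134, limma adjusted p = 5.77e-10). The lowest DIO2 array of that day, 56.9 at 50 h, is the only 1 under the short-day maximum. Without both arrays of 50 h and of its counterpart at 2 h, a choice made after seeing the data, the difference was 1.75 (limma adjusted p = 2.36e-12).

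DIO3 was lower by 4.93 on the log2 scale (SE 0.163), and at least 23.04-fold lower with dim signals raised to the array median. In the limma fit the DIO3 difference stayed between -5.19 and -4.75 under all 55 alternatives. None of these raised dim signals to the array median, where the fall was at least 4.53 log2 units. In log2 the dimmer DIO2 probe set was higher at 6 of 6 hours. At 62 h its mean signal was 9.43, against 10.1 at 14 h, where the second array was under the floor. Under alternatives its differences at 54, 58 and 62 h ran down to -0.19, -0.07 and -0.99. Over the whole day it was higher by 1.10 (SE 0.270, limma adjusted p = 0.0270), with 5 of 12 arrays above the array's median on the short day. That call was lost in 13 of 54 alternatives, among them the omission of the second array of 2, 6, 14, 18, 50, 66 or 70 h or of the first array of 10, 54 or 58 h, with values of 0.90 to 1.08 and adjusted p up to 0.0914.

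On the first long day at hours 2 and 6, before the extra light, no deiodinase probe set was called by limma (0.00312% of all probe sets were) or had an unadjusted p under 0.05. The log2 difference was 0.12 (interval -0.35 to 0.59) for DIO2 and 0.21 (-0.36 to 0.78) for DIO3 with 4 arrays against 4. For the dimmer DIO2 probe set it was -0.55 (-1.49 to 0.40), and for DIO1 0.61 (-0.43 to 1.65).

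Hours 10 to 22 of the first long day mix 34 and 38 h, when neither gene had moved, with 42 and 46 h, when both had. Over this window 2 of the 4 deiodinase probe sets passed, DIO2 and DIO3, against 0.0561% of all. The dimmer DIO2 probe set differed by 0.67 (interval -0.00075 to 1.34, limma adjusted p = 0.887). The window mean therefore understates the change at the last hours, which the hourly differences show separately.

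Taken hour by hour against the short day, DIO2 passed the threshold at 6 of 15 times and DIO3 at 9 of 15, while the dimmer DIO2 probe set and DIO1 passed at 0 (limma; 7 and 1 times at an unadjusted p under 0.05). Up to 40 h between 0.0% and 0.0125% of all probe sets passed (0.00312% at 26 and 38 h), then 0.0406% at 42 h, 0.0343% at 44 h and 0.0374% at 46 h. On the second long day the share was 0.0218%, 0.025%, 0.0187%, 0.0686%, 0.0343% and 0.0281% from 50 to 70 h. The short day was not sampled at the hours of 36, 40 and 44 h, and the mean of the neighbouring hours was used for them. DIO3 was called at every time from 42 h on.

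DIO2 was 4.71-fold higher at 44 h (95% interval 3.16 to 7.03) and 4.52-fold higher at 46 h (2.85 to 7.18). On the second long day it was 4.78-fold higher at 54 h (3.01 to 7.58), 3.79-fold at 62 h (2.38 to 6.01) and 3.69-fold at 70 h (2.33 to 5.86), all called. The intervals of these called hours overlap, so no order among them is read. At 50, 58 and 66 h the DIO2 folds were 1.75, 3.07 and 2.13 (limma adjusted p = 0.694, 0.0881 and 0.444).

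Several of the DIO2 calls depended on single arrays or on the processing. Without the second array of 50 h the log2 difference at that time was 1.66 (limma adjusted p = 0.0237) in place of 0.80. The call at 42 h was lost in 9 of 55 alternatives, 4 of them without either array of 18 or of 42 h (1.54 to 1.83, adjusted p up to 0.520), and the others on the deposited scale, with median centring, no filter, no variance trend or only the arrays compared. The call at 46 h was lost without the first array of 22 h (1.79, adjusted p = 0.0912), that at 54 h without the second of 6 h (1.85, 0.111), that at 62 h without either of 14 h (1.77 and 2.07, 0.104 and 0.0567) and that at 70 h in 7 of 55 alternatives, without the first of 22 h or either of 70 h (1.496 to 1.90, up to 0.223), on the deposited scale, with median centring, no variance trend or only the arrays compared. Without the variance trend the calls at 54 and 62 h were lost too (adjusted p = 0.0584 and 0.0539), and with only the arrays compared every hourly DIO2 call was. The log2 difference stayed at 1.496 or above where a call was lost. In the other direction, DIO2 passed at 58 h without either array of 50 h (1.62) and, with the whole short day as baseline, at 58 h (1.62) and at 66 h (1.39).

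For DIO3 no single array ended an hourly call from 42 h on. The DIO3 signal was 13.0-fold lower at 44 h (95% interval 7.99 to 21.1) and 15.4-fold lower at 46 h (8.81 to 27.1). After 46 h both DIO3 arrays were above the array's median at 66 h alone, where the signal was 22.5-fold lower (12.9 to 39.5). With 1 of 2 arrays above the median it was at least 17.3-fold lower at 50 h, at least 17.6-fold at 54 h and at least 30.5-fold at 58 h. With neither above it, it was at least 19.2-fold lower at 62 h and at least 37.1-fold lower at 70 h. Sampling error, which these limits leave out, could put the folds lower. No order of these hours is read from limits, and the difference of both daily profiles was not called.

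**Figure D3:**
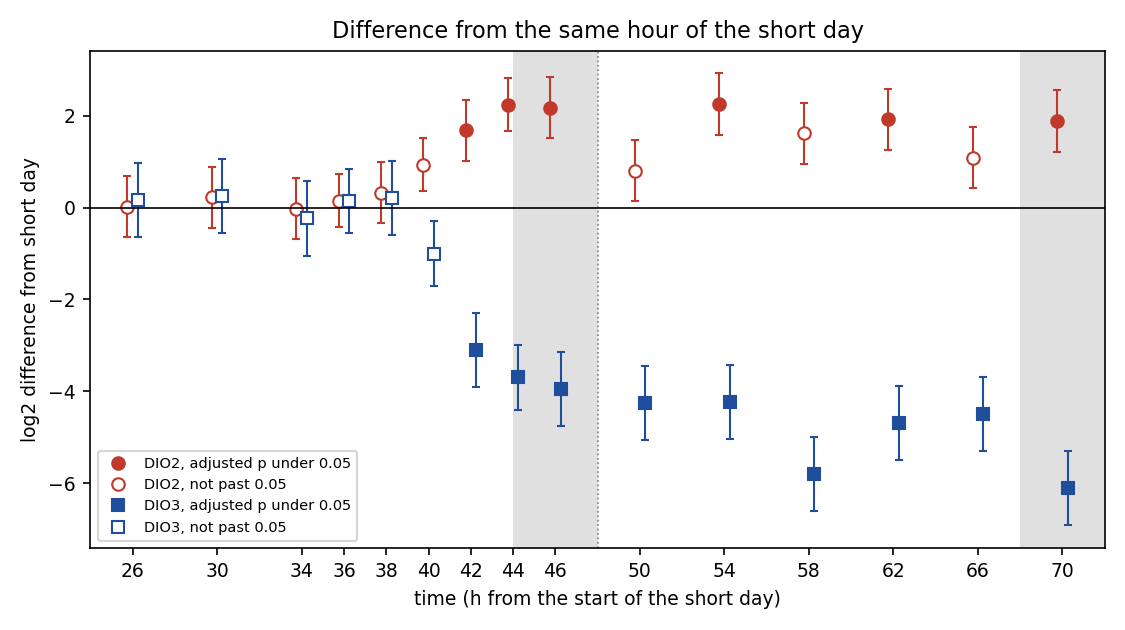
Log2 difference of DIO2 (circles) and DIO3 (squares) from the same hour of the short day at each time of both long days, with 95% intervals of the limma fit; filled symbols are past an adjusted p of 0.05. DIO2 is filled at 42, 44, 46, 54, 62 and 70 h, DIO3 at all 9 times from 42 h on, and at 26 to 38 h both lie near 0. The DIO3 points at 50, 54, 58, 62 and 70 h rest on signals partly or wholly below the array's median.

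The rate of change was taken over the 5 times sampled every 2 h from 38 to 46 h (10 arrays). DIO2 rose by 0.27 log2 units per h (SE 0.0367, limma adjusted p = 5.61e-05), a doubling every 3.71 h (95% interval 2.91 to 5.13). DIO3 fell by 0.43 log2 units per h (SE 0.0446, limma adjusted p = 5.09e-07), a halving every 2.32 h (1.92 to 2.93). Both were called where 0.0374% of all probe sets were (0.025% rising and 0.0125% falling). These straight lines include the decline of the DIO2 mean from 44 to 46 h, a step that was not called. Across alternatives the slope ran from 0.25 to 0.39 for DIO2 and from -0.54 to -0.40 for DIO3. The steepest of each was over 38 to 44 h alone, and both were beyond the intervals above. The doubling and halving times thus describe 38 to 46 h as a whole.

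The slope of the dimmer DIO2 probe set was 0.25 log2 units per h, with a larger error (SE 0.0740, limma adjusted p = 0.789). It starts at 38 h, where the arrays read 7.81 and 2.23, the latter under the floor. Under alternatives it ran from 0.15 to 0.31. DIO1 had a slope of 0.04 (interval -0.13 to 0.20). Neither passed the threshold.

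The DIO3 signal fell by more log2 units per h than the DIO2 signal rose over these 8 h. Whether both probe sets respond alike to their transcripts was not tested, so this compares signals only. The sum of both slopes was -0.16 log2 units per h (permutation test over the 10 arrays with 100000 resamples, two-sided, p = 0.00349). The DIO2 mean was highest at 44 h, though its arrays overlapped with those of 46 h. The mean of the dimmer DIO2 probe set was higher at 46 h (26.2) than at 44 h (22.0). Over 38 to 44 h, a window chosen after seeing the DIO2 means, the sum was -0.15 (8 arrays, exact permutation p = 0.05, not under the threshold). The unequal rate is thus close to the threshold once the last time is set aside.

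On the short day the DIO3 means were 248 ± 23.7 at 14 h, 438 ± 77.9 at 18 h and 482 ± 61.4 at 22 h, so they ran the other way. The difference in slope between 38, 42 and 46 h and 14, 18 and 22 h was -0.52 log2 units per h (SE 0.0705, limma adjusted p = 3.58e-04). DIO3 was the single probe set of all 32057 called lower in this comparison (0.00312%, of 0.00936% in either direction). For DIO2 the difference was 0.23 (SE 0.0581), with an unadjusted p of 3.07e-04 and a limma adjusted p of 0.496. The steeper course of DIO2 on the long day thus missed the threshold over all probe sets.

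Between neighbouring times the largest move of both genes came from 40 to 42 h, when DIO2 went up 2.00-fold (interval 1.26 to 3.18) and DIO3 down 3.23-fold (1.84 to 5.66). The step before it, from 38 to 40 h, was 1.82-fold up for DIO2 and 1.75-fold down for DIO3. None of the 11 steps from 36 to 70 h was called by limma for a deiodinase, with 2 arrays against 2. Of all probe sets 0.0% were called in 7 of these steps, 0.00312% from 38 to 40 h and from 66 to 70 h, 0.053% from 58 to 62 h and 0.0499% from 62 to 66 h. At an unadjusted p under 0.05 there were 3 such steps for DIO2, 5 for DIO3, 2 for the dimmer DIO2 probe set and 1 for DIO1.

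Which gene reached the middle of its change first depended on the scale. On the log2 scale DIO2 crossed the midpoint between its mean over 26 to 36 h and its extreme up to 54 h at 40.4 h (40.3 to 40.6 when leaving out each array in turn), and DIO3 at 41.4 h (41.2 to 41.7). On the linear scale the order turned, with DIO3 at 39.8 h (39.5 to 39.9) and DIO2 at 41.1 h (40.8 to 41.5). No order of the pair is read from these values, each of which lies between neighbouring samplings. The DIO3 extreme was at 54 h, where 1 of 2 arrays lay below the array's median.

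**Figure D4:**
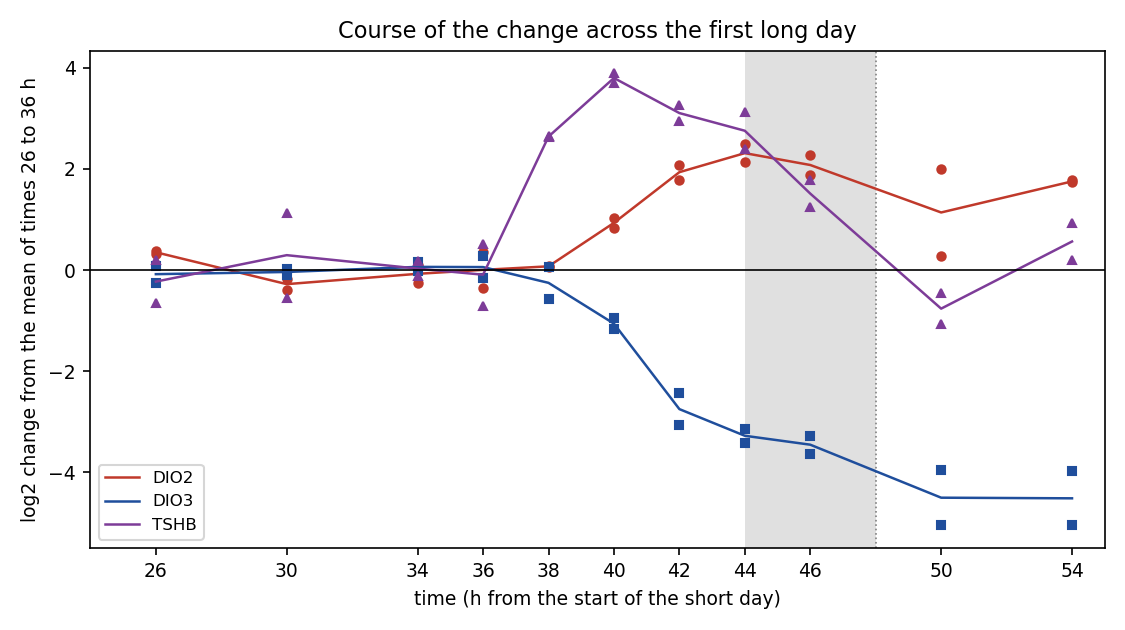
Log2 change of DIO2, DIO3 and TSHB from each gene's mean over 26 to 36 h, against time from 26 to 54 h; symbols are arrays and lines the means of 2 arrays. TSHB, with a starting level near the array's median, peaks at 40 h and is below that median on both arrays of 50 h. The DIO2 mean is highest at 44 h, where its arrays overlap with those of 46 h. DIO3 falls until 50 h and is about level at 54 h. At 50 h and at 54 h 1 of 2 DIO3 arrays lies below the array's median.

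After 46 h the courses were flatter. From 46 to 70 h the slope of DIO2 was -0.005 log2 units per h (interval -0.027 to 0.017). That of DIO3 was -0.057 (-0.084 to -0.030, unadjusted p = 1.31e-04, limma adjusted p = 0.233), with 0.0156% of all probe sets called. The DIO3 slope was called without either array of 58 h (adjusted p = 0.0284 and 0.0280, slope -0.057 both times).

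Compared directly, DIO3 was lower on the second long day than on the first. At hours 10 to 22 DIO3 was at least 7.77-fold lower on the second long day than on the first (3 of 8 arrays above the array's median, limma adjusted p = 1.09e-14), where 0.0374% of all probe sets were called. At hours 2 and 6 DIO3 was at least 20.2-fold lower (2 of 4 arrays, limma adjusted p = 3.36e-13), with 0.0499% of all called.

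DIO2 differed between the long days by 0.59 at hours 10 to 22 (1.51-fold, limma adjusted p = 0.252) and by 1.41 at hours 2 and 6 (2.66-fold, 1.92 to 3.69, adjusted p = 0.00455). The latter call rested on the first array of 50 h, without which the difference was 0.98 (limma adjusted p = 0.0880). For the dimmer DIO2 probe set the difference at hours 2 and 6 was 1.90 and not called (limma adjusted p = 0.230), and for DIO1 it was 0.06.

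Within a day no deiodinase varied by hour past the threshold. The limma F test over the 6 times gave an adjusted p of 1 for all 4 probe sets on the short day (unadjusted p from 0.0855 to 0.599), where 0.0624% of probe sets were called. On the second long day (0.0499% called) the adjusted p was 0.770 for DIO2 and 0.267 for DIO3 (unadjusted 0.00251). The DIO3 profile was called without the second array of 58 h (adjusted p = 0.00712), which left that time on the array at the floor. The difference between both profiles was called for no deiodinase (0.00312% of all, adjusted p of 0.737 or more, lowest unadjusted p 0.00412), though for DIO3 it was without that same array (adjusted p = 0.0316).

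The DIO2 to DIO3 signal ratio was taken on each array and expressed relative to its short-day mean, since the ratio of 2 probe sets has no meaning except in its change. On the short day the log2 ratio ran from -0.77 through -0.05 to 1.04. On the first long day it ran from -0.55 through 0.69 to 5.99, and on the second from 5.40 through 6.44 to 8.28. That highest value belongs to the first array of 58 h, where DIO3 was at the floor, so it is set by the floor. The next highest was 7.57 at 70 h, where DIO3 was below the array's median. With DIO3 raised to that median this array stood at 6.59, and the second array of 50 h at 5.12 in place of 5.40. The second long day did not overlap with the short day, and the first overlapped with both.

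The ratio stayed near its short-day mean up to 38 h, at 1.05- and 1.66-fold on the arrays of that time. It stood at 3.66- and 4.80-fold at 40 h, 30.6- and 24.1-fold at 42 h, 40.9- and 63.2-fold at 44 h, and 63.7- and 37.5-fold at 46 h. From 42 h on every array was at least 24.1-fold above the short-day mean. At 50 h, where the DIO2 signals of the arrays disagreed, DIO3 differed in the same direction, and the ratios of 65.8- and 42.2-fold were closer to each other than the DIO2 signals were. DIO3 differed as much at 54 h (21.6 and 10.3), where DIO2 did not (156 and 160). The reason for either split was not tested.

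From 50 h on the ratios are lower limits wherever DIO3 lay below the array's median. With DIO3 raised to that median, they were at least 65.8- and 34.8-fold at 50 h, 55.6- and 104-fold at 54 h, 92.6- and 65.0-fold at 58 h, 107- and 73.7-fold at 62 h and 95.5- and 96.0-fold at 70 h. At 66 h, where DIO3 was above the median, the arrays stood at 46.2- and 48.5-fold, below both limits of 62 h and of 70 h. The DIO2 time mean there was the lowest of that day on the linear scale (119 ± 1.35), though on the log2 scale that of 50 h was lower, and DIO3 was at its highest (19.3 ± 0.900). Neither step into or out of 66 h was called for either gene.

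**Figure D5:**
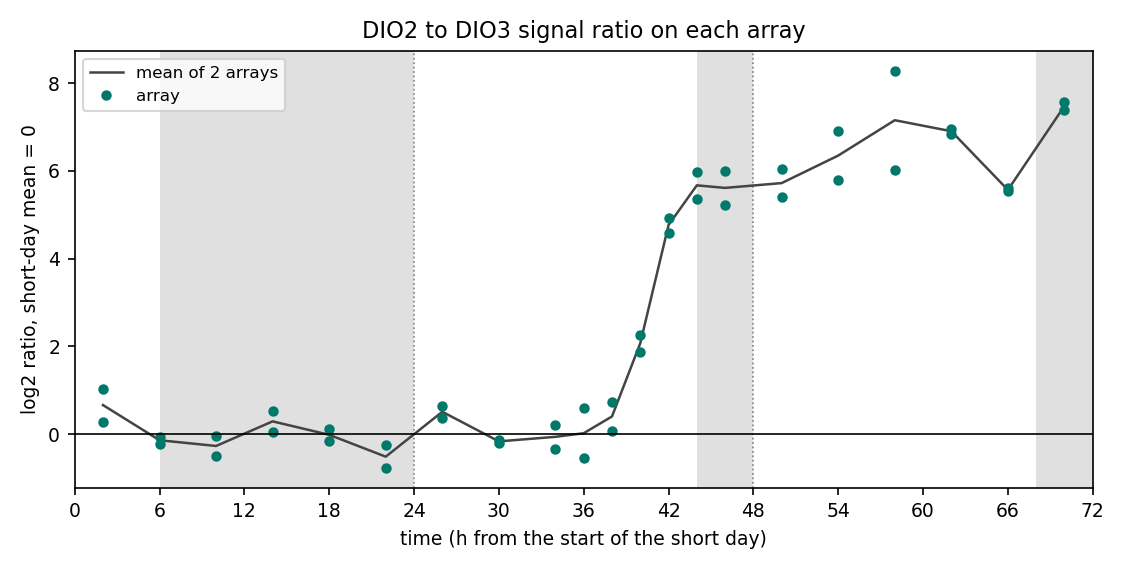
Log2 of the DIO2 to DIO3 signal ratio against time, with the short-day mean at 0; points are arrays, the line joins the means of 2 arrays, and grey marks dark hours. The ratio lies between -0.77 and 1.04 on the short day, leaves that range at 40 h and is at 5.40 or above on all 12 arrays of the second long day. Points of that day rest partly on DIO3 signals below the array's median. With these raised to the median the second array of 50 h is at 5.12.

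Day labels permuted within each hour gave an exact two-sided test of the ratio, adjusted over 5 comparisons. The second long day exceeded the short day by 6.53 on the log2 scale, at 6 of 6 hours (exact permutation p = 4.29e-05, the smallest of 46656 arrangements, adjusted p = 2.14e-04). The first long day exceeded it by 2.81 over hours 10 to 22 (4 of 4 hours, exact permutation p = 0.0154, adjusted p = 0.0257). With the mean of both DIO2 probe sets in place of the brighter 1 this difference was 2.62 and no longer past the threshold (adjusted p = 0.0566).

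On the first long day the ratio at hours 2 and 6 differed by -0.09 (exact permutation p = 0.778). The second long day exceeded the first by 4.10 at hours 10 to 22 (exact permutation p = 0.00154, the smallest possible, adjusted p = 0.00386). At hours 2 and 6 it exceeded it by 5.86 on arrays that did not overlap, but 4 arrays against 4 within 2 hours cannot go below the p of 0.0556 that was found. With DIO3 raised to the array's median, an alternative chosen after seeing the data, the ratio was at least 69.6-fold higher on the second long day than on the short day and at least 11.7-fold higher than on the first at hours 10 to 22, with the same exact permutation p-values. In both comparisons between the long days, the hours of the first include times before the ratio had moved. All comparisons with the short day share its arrays and are not independent.

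Over 38 to 46 h the log2 ratio rose by 0.70 per h (permutation test with 100000 resamples, p = 1.40e-04, adjusted over the ratio and the sum of slopes 2.80e-04), a doubling every 1.43 h. From 38 to 44 h alone it rose by 0.93 per h (exact permutation, adjusted p = 0.00159). Whether both rates differ was not tested.

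The signal upstream of the deiodinases was described from a list of 10 genes, 8 of them measured. Thyrotropin's beta subunit TSHB and the shared alpha subunit CGA were higher over hours 10 to 22 of the first long day (at least 3.36-fold and 2.37-fold, limma adjusted p = 1.76e-07 for both) and on the second long day (at least 1.94-fold and 2.13-fold, adjusted p = 2.27e-07 and 1.28e-08), the only higher calls among the 8 in either comparison, where 0.0561% and 1.37% of all probe sets were called. The TSHB folds are limits because all 12 of its short-day arrays lay below the array's median. On the second long day 8 of 12 TSHB arrays lay above that median, and the others entered as measured. The list's median log2 difference was 0.12 on the first and 0.32 on the second long day, beside 0.005 and 0.04 over all probe sets tested. TSHB stood at 11.2 ± 6.34 at 36 h, 68.2 ± 0.441 at 38 h, when DIO2 and DIO3 still lay in their short-day range, and at its maximum of 153 ± 13.8 at 40 h. It was below the array's median again at 50 h (6.58 ± 1.99), while DIO3 stayed low. Later TSHB means were 16.7 ± 5.71 (54 h), 4.36 ± 3.72 (58 h), 34.8 ± 10.0 (62 h), 106 ± 5.94 (66 h) and 87.2 ± 18.3 (70 h).

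GNAS, the stimulatory G protein subunit through which the thyrotropin receptor signals, was 1.30-fold lower on the second long day (limma adjusted p = 2.33e-04). It was the single lower call among the 8 on that day, when 0.97% of all probe sets were called lower. EYA3, a transcriptional coactivator, was 1.87-fold above the short day over hours 10 to 22 of the first long day without being called (adjusted p = 0.400). Its slope from 38 to 46 h was -0.29 log2 units per h (limma adjusted p = 0.0242), 1 of the 4 falling slopes called, as was that of DIO3.

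Hormone carriers were measured for 7 of 13 listed genes, and 2 were lower in both comparisons, where 0.0561% of all probe sets were called over hours 10 to 22 of the first long day and 0.97% were lower on the second. TTR and ALB, which carry thyroid hormone in plasma and cerebrospinal fluid, had log2 differences of -1.87 and -3.06 over hours 10 to 22 of the first long day (limma adjusted p = 2.63e-04 and 2.88e-07) and of -0.90 and -2.65 on the second long day (0.0315 and 3.53e-08). ALB was above the array's median on 3 of 8 and 5 of 12 of these long-day arrays. ALB is also a liver marker and TTR a choroid plexus marker, and no other of the 8 measured choroid plexus markers was called. Of the 11 measured liver markers 2 were lower over those hours of the first long day, ALB and the fatty acid binding protein LBFABP (log2 difference -2.05, limma adjusted p = 0.00294, with 0 of 8 arrays above the median). The later day had ALB lower and TF, transferrin, higher (1.24-fold, adjusted p = 0.00706), and TF was also 1.48-fold higher than on the first long day at hours 2 and 6 (adjusted p = 0.0425). Their part in the deiodinase results was not tested. The membrane transporter SLC16A10 differed by 0.46 and was not called (limma adjusted p = 0.939).

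Receptors and their cofactors, through which the hormone made by DIO2 acts, showed 0 calls among 10 measured genes in either comparison (limma; 1 at an unadjusted p under 0.05 in each). With 0.0561% and 1.37% of all probe sets called, 0 of 10 is near the background, and the same holds for the lists of 9 and 12 genes that follow. RXRA, a partner of the thyroid hormone receptors, differed by -0.31, HDAC3 by 0.34 and the corepressor NCOR1 by -0.16 over hours 10 to 22 of the first long day. Of 5 measured hormone-response genes BCL6, a transcriptional repressor, was lower on the second long day (1.34-fold, limma adjusted p = 3.50e-04), while HIF1A and KLF9 were not called. On that day 0.97% of all probe sets were called lower.

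Deiodinases need the machinery that inserts selenocysteine, and none of 9 measured genes for it was called on the first or second long day (limma; 0 and 3 at an unadjusted p under 0.05). EEFSEC, the elongation factor for selenocysteine, differed by 0.30, SECISBP2, which binds the insertion element in the messenger, by 0.25 and EIF4A3 by 0.12. Of 17 other selenoproteins measured, SELENOW was lower on the second long day (1.59-fold, limma adjusted p = 7.69e-06), while TXNRD2 and GPX4 were not called. The share of all probe sets called lower on that day was 0.97%. The list's median log2 difference on that day was 0.01, beside 0.04 over all probe sets.

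DIO2 protein is removed by ubiquitination, and 12 measured genes of that route held 0 calls on either long day (limma; 1 and 2 at an unadjusted p under 0.05). WSB1, the adaptor that recognises DIO2, differed by -0.15 over hours 10 to 22 of the first long day and by -0.25 on the second (limma adjusted p = 0.918 and 0.0968). VCP, which extracts ubiquitinated proteins, differed by -0.20, and the deubiquitinase USP33 by 0.13. The median of this list was 0.04 on the first and -0.07 on the second long day.

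Across 21 time means and 12311 genes, the profile most opposed to DIO2 was that of DIO3 (Pearson r = -0.86), and the profiles most like it were those of RASD1, a small G protein (0.83), ETNPPL (0.79), LOC427029 (0.77), LAPTM4B (0.76) and PRKCD, a protein kinase C (0.76). Those most like DIO3 were PRKX, a protein kinase (0.88), PKIA, an inhibitor of protein kinase A (0.85), TNRC6B, DCLK1 and NAP1L1 (0.85 each). TSPAN6 (-0.91) and SOD3, extracellular superoxide dismutase (-0.87), opposed DIO3 more than DIO2 did. The 2 deiodinases differ from these genes in range, since the DIO3 means spanned 6.11 and the DIO2 means 2.82 on the log2 scale, against 0.47 to 2.07 for the genes named. These correlations share arrays and scaling and serve as a description.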

How the data were processed

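The values the authors deposited are linear signal intensities, 1 per probe set and array, from GCOS 1.2, per the submitters' processing notes. Scaling target and detection calls: not given in the sources used here. Labelled cRNA from 5 µg of pooled RNA went onto chicken genome arrays, per the labels' protocols, so probes may differ in sequence from quail. The 2% trimmed means of the 42 arrays spanned 25.15 to 40.75, and 1 factor per array (0.796 to 1.29) brought each to 32.42. Most factors were above 1 on the second long day and below 1 on the short day. Before log2 was taken, signals were raised to a floor of 3.509 (the 25th percentile of each array, median over arrays). Printed signals are before the floor. The 96 control probe sets were left out, and those above their array's median on at least 2 arrays were kept.

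Using limma 3.58.1 in R 4.3.3, 1 mean per time was estimated from all arrays together (residual degrees of freedom 21, variance trend, two-sided, Benjamini-Hochberg over 32057 probe sets, threshold 0.05, 95% intervals). Slopes and differences are contrasts of that model. Where a group's signals lay below the array's median, the nearest mark of background without detection calls, a fold was given as a bound, with each such signal raised to that median. Such a bound does not include sampling error. Ratio tests, slopes of the ratio and figures used Python 3.11.15. On simulated data 80% of probe sets changed by 1 log2 unit between the second long day and the short day were recovered, and 39% and 81% of those with slopes of 0.15 and 0.30 log2 units per h from 38 to 46 h. The number of arrays limits the precision.

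The brightest probe set stood for each gene of a list. Genes are named if on a list and past the threshold in a comparison of days or on the slope from 38 to 46 h, up to 3 per list of the hormone pathway by p over hours 10 to 22 of the first long day, and the 5 most and 3 least correlated with DIO2 and with DIO3. Members, gene lists and tests were chosen with earlier results of these data known. Marker lists covered tanycytes, pituitary, choroid plexus, meninges, liver, erythrocytes, neurons, oligodendrocytes and astrocytes. Replicate numbers did not pair arrays across times: over 210 pairs of times the correlation of deviations ran from -0.035 to 0.038. No sequences or coordinates are given, since no genome build is named. Alternatives were other scalings, floors, filters and baselines, another pseudocount, no variance trend, only the arrays compared, a replicate block and omission of each array.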

Additional observations from a re-analysis of the deposited data

Results flagged for a closer look

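A test of the difference itself separated the days for 5 deiodinase results. DIO3 was lower on the second than on the first long day by a log2 difference of -3.51 at hours 10 to 22 and of -4.45 at hours 2 and 6, and DIO2 was higher by 1.41 at hours 2 and 6. The log2 ratio of DIO2 to DIO3 was higher by 4.10 at hours 10 to 22. The DIO3 slope over 38, 42 and 46 h differed from that over 14, 18 and 22 h by -0.52 log2 units per h. In the comparisons of the long days, the hours of the first include times before the change. These differences thus hold the change within the first long day and do not measure a further one. The DIO3 sizes on the second long day rest partly on signals below the array median. Times of 2 arrays were not tested for a stray array.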

How the results depend on the processing

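The calls of DIO2 and DIO3 against the short day, over the whole second long day and over hours 10 to 22 of the first, and their slopes from 38 to 46 h kept their direction and side of the threshold under all alternatives, as did the ratio of the second long day to the short day (6.12, with DIO3 raised to the array's median, to 6.72). Where neither value was called, signs were not judged. DIO2 between the long days at hours 10 to 22 passed in the compared arrays alone (0.59, limma adjusted p = 0.0362). At hours 2 and 6 it no longer passed on the deposited scale (1.28), with only the arrays compared (1.41), without the first array of 50 h (0.98, and up to 1.84 without other arrays) or with no variance trend (1.41). The dimmer DIO2 probe set on the second long day did not pass with quantile normalization (1.01), a floor at the 10th percentile (1.19), the compared arrays alone (1.10) or without single arrays (0.90 to 1.08, and up to 1.29 where it passed). The DIO3 slope difference did not pass in the compared arrays alone (-0.52, adjusted p = 0.0628). The ratio of the first long day with both DIO2 probe sets was 2.62, and the sum of slopes to 44 h was -0.15. The DIO2 midpoint was 41.1 h on the linear scale (40.3 to 40.6 h leaving out arrays), the DIO3 midpoint 39.8 h (41.2 to 41.7 h), and DIO2 minus DIO3 turned from -0.97 to 1.38 h (-1.35 to -0.67 h leaving out arrays). Hourly calls with the compared arrays alone rest on 4 or 6 arrays and were mostly lost. With the replicate number as a block, the second long day gave 1.60 for DIO2 (limma adjusted p = 1.20e-09) and -4.93 for DIO3 (4.62e-22), and no call of these comparisons changed. The number of probe sets called on the second long day was 438, and 149 to 3510 under alternatives, that between long days at hours 10 to 22 was 12 (5 to 713), that at hours 2 and 6 was 16 (as few as 1), that on the slope from 38 to 46 h was 12 (3 to 19), that on the slope difference 3 (0 to 5), that on the slope from 46 to 70 h 5 (2 to 15) and on the first long day against the short at hours 2 and 6 it was 1 (0 to 14). DIO1 had no value under the stricter filter. Dim signals limit DIO1, the dimmer DIO2 probe set and the depth of the DIO3 fall.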

Other observations

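The other marker lists gave the following values beside the deiodinase changes. The summed signal of 9 measured markers of anterior pituitary and pars tuberalis, which include TSHB and CGA, ran from 664 to 1664 on the short day, from 1123 to 2082 on the first long day and from 1119 to 2337 on the second. That of 6 astrocyte markers ran from 4788 to 6055, from 4581 to 6154 and from 4554 to 6010, and that of 7 neuron markers from 13162 to 15182, from 12703 to 15537 and from 12309 to 17231. For 11 liver markers it ran from 8074 to 11256, from 7008 to 10573 and from 9006 to 13007. For 8 choroid plexus markers it ran from 789 to 1091, from 730 to 1125 and from 747 to 1007, and for 10 markers of fibroblasts and meninges from 831 to 1267, from 773 to 1422 and from 777 to 1112. For 3 oligodendrocyte markers it ran from 7349 to 8473, from 6679 to 9139 and from 5736 to 9394, and for 3 erythrocyte markers from 311 to 852, from 268 to 815 and from 238 to 548. Some genes on these lists were not named with the deiodinases. Of these, DCN and FMOD, proteoglycans of connective tissue, were lower on the second long day than on the short day (log2 difference -0.29 and -1.11, limma adjusted p = 0.0414 and 0.0288). FMOD was above the array's median on 0 of 12 arrays of that day and on 4 of 12 of the short day. SYT1, a synaptic vesicle protein, was higher on the second long day (0.27, limma adjusted p = 0.0488). They were 2 of 10 measured markers of fibroblasts and meninges and 1 of 7 of neurons. Of all tested probe sets 0.97% were called lower and 0.396% higher on that day.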
